A study of Drosophila melanogaster with 8 samples.

Results

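Many genes can end their mRNA at more than 1 poly(A) site in the 3' UTR, and the site nearest the stop codon, the proximal site, gives the shorter mRNA. These are 87 such gene entries in Drosophila melanogaster testes whose proximal site was hardly used in the control: it took under 5% of the reads of the entry. An entry is a gene with 1 of its transcripts, and 529 entries with 2 or more sites were listed in all. The 87 entries have outermost sites at least 200 bp and less than 1 kb apart and 50 or more reads summed over the 2 control libraries. In all, 343 entries met the limits on distance and reads, and the other 256 had a proximal share of 5% or more in the controls. The members carry 86 gene symbols, because E(bx) is present with 2 transcripts whose sites lie apart. Of the members, 8 have 3 sites. For these the proximal share counts the first site alone, and the other reads can lie at the middle or the last site.

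The 3' end of an mRNA is made by cleavage of the nascent transcript followed by addition of a poly(A) tail. Clp1 (crowded by cid, cbc, in flies) and Pcf11 are subunits of cleavage factor II, and Pcf11 also binds the tail of RNA polymerase II. A 3' UTR carries binding sites for microRNAs and RNA-binding proteins, so a choice between sites decides which of them a message keeps.

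The libraries are 3' end libraries (Lexogen QuantSeq FWD) from testes of bam mutant males (bam86 over bam1), in which germ cells stay in spermatogonial divisions. In 3 genotypes the males carried UAS transgenes: UAS>cbc-V5, UAS>PCF11-RF-HA, or both. The control had the same background with no UAS transgene. Every genotype carried nosGal4 and bamGal4, drivers of early germ cells. Each genotype has 2 libraries of about 150 pairs of testes, from males of crosses kept 3 days at 25 degrees, whose progeny were raised at 29 degrees. Nothing in the labels says that the 2 libraries came from separate cultures, so each p-value reflects only how these libraries vary, and that variation may be technical. Whole testes were used, so less RNA per cell and fewer cells of a type cannot be told apart. The listed genes hold neither cbc nor Pcf11, so the overexpression itself was not measured here. Of the lists of cell markers, 2 spermatocyte or spermatid markers and 1 cyst or hub marker had a listed entry and none of them is a member, so the cell types were not checked with these counts.

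The listed sites together held 287046 and 244017 reads in the cbc libraries, 251163 and 238162 in the PCF11 libraries, 296166 and 287828 in the libraries with both, and 258161 and 333675 in the control libraries. Of these, the members held 33357 to 47914 reads a library. The median member had 647 control reads (57 to 7181). The precision at the proximal site follows from the few reads there: 18 members had no proximal read in either control library, 11 had 1 to 3, and 41 had over 10. For Trc8, with 0 of 635 control reads, the upper limit of the exact 95% interval of the share was 0.579%. For CG46457, with 0 of 89 reads, it was 4.06%. These limits cover counting error only, since reads carried no molecular identifiers.

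The proximal window lay in an annotated 3' UTR in 86 of 87 members, and in an intron in loqs. It ended a median of 155 bp past the stop codon of the named transcript, and the most distal window 654 bp past it. The other 256 entries of the same distance and reads had medians of 189 and 699 bp. The median distance between the outermost windows was 454 bp among the members and 456 bp among the others. The proximal window ended within 30 bp of an annotated transcript end in 16 members (18.4%), against 19.1% of the others, and the distal window in 55 (63.2%), against 68.8%. The distal window lay beyond the annotated end of the gene in 14 members (16.1%), against 8.203% of the others. Chromosome X held 6 members (6.90%), against 15.3% of all 529 entries. These shares are descriptions of the chosen entries.

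**Figure D1:**
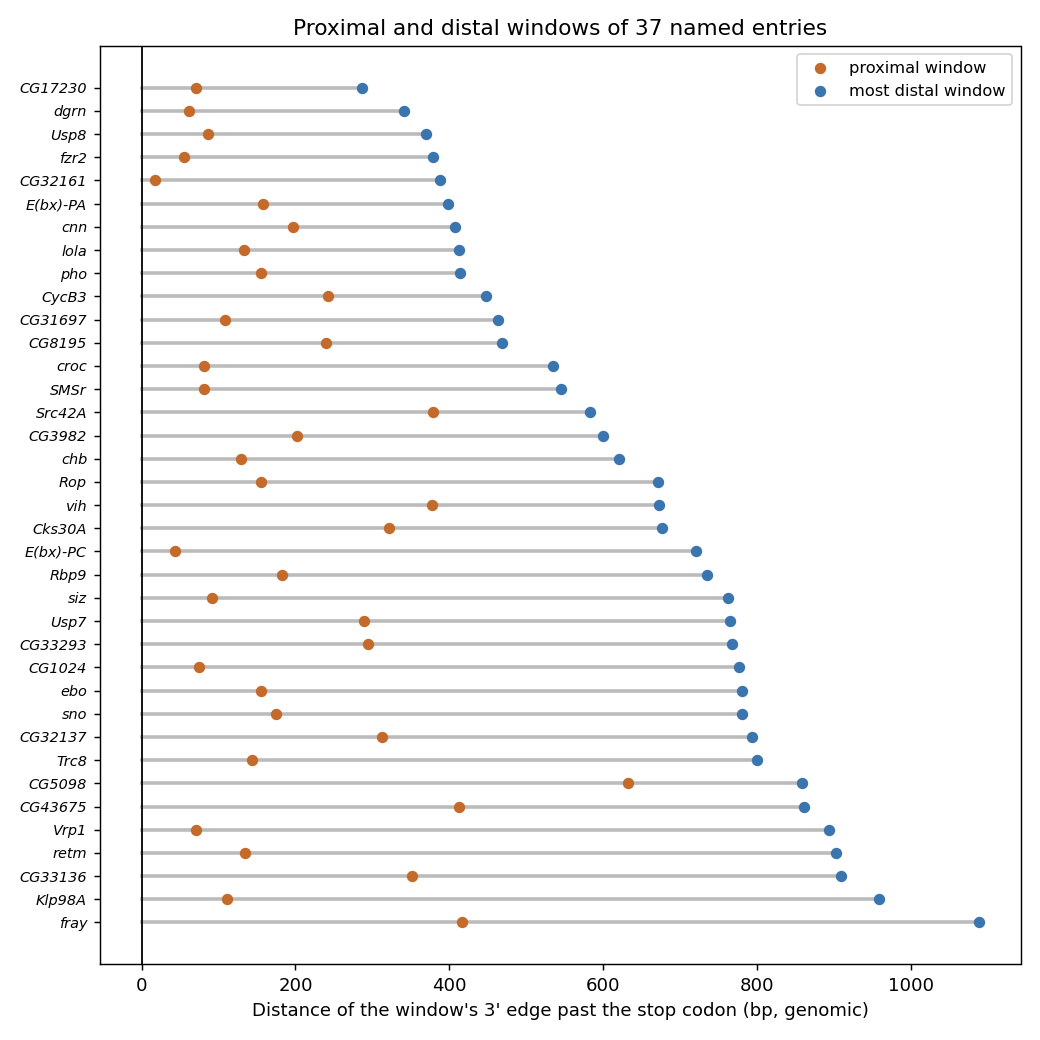
Position of the proximal (orange) and most distal (blue) window of 37 named members, as the distance in bp of the 3' edge of the window past the stop codon of the named transcript (vertical line at 0), with 1 row for each entry. The proximal windows lie 18 bp (CG32161) to 632 bp (CG5098) past the stop codon, and the distal windows 287 bp (CG17230) to 1088 bp (fray).

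The control reads chose the members, so the levels of the proximal site against the controls are given here without a test. The pooled proximal share, all proximal reads over all reads of the members, was 3.54% and 3.86% in the cbc libraries, 4.61% and 5.15% in the PCF11 libraries, 4.48% and 4.46% in the libraries with both, and 2.11% and 2.41% in the control libraries. The median share was 2.70% and 2.38% with cbc, 3.19% and 3.91% with PCF11, 2.95% and 2.76% with both, and 0.192% and 1.85% in the controls. The site thus stayed the minor one in the typical member, in all 8 libraries. The gap between the 2 control medians came with 43 members without a proximal read in control library 1 and 22 in control library 2.

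A share of 5% or more was reached by 23 and 24 members in the cbc libraries, 29 and 39 in the PCF11 libraries, 26 and 27 in the libraries with both, and 4 and 12 in the controls. In all 6 overexpression libraries, 7 members were at or above 5%: CG33129, E(bx)-PA, Rbp9, Rop, croc, jvl and vih. Another 30 members stayed below 5% in all 6, and 50 crossed it in some of them. Only Rop and croc were at 10% or more in all 6. CG46457 and bbg had no proximal read in any library.

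**Figure D2:**
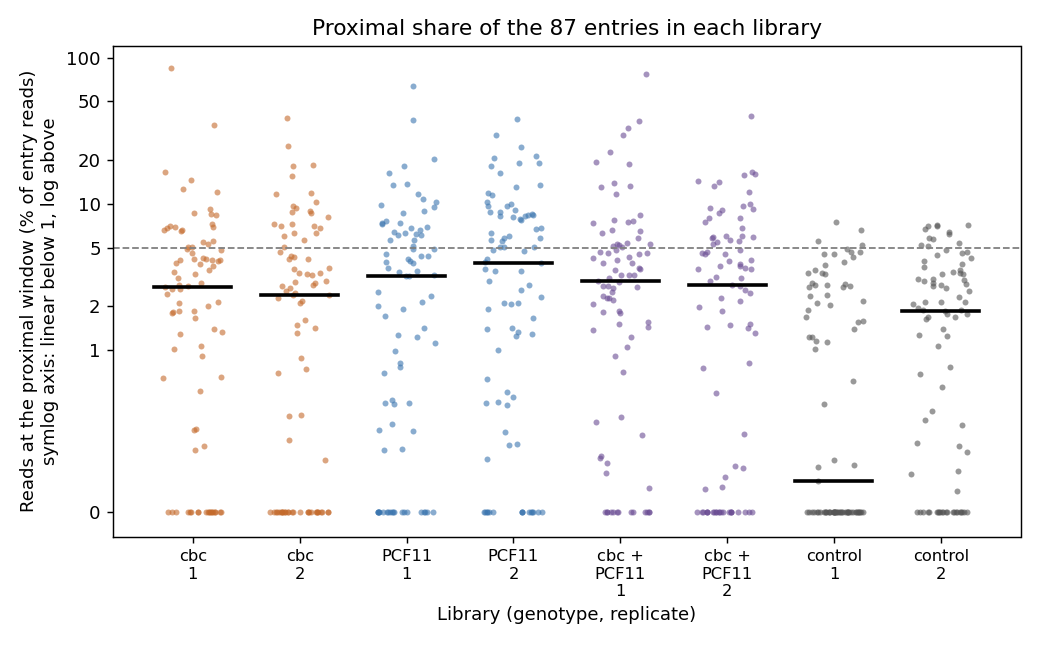
Proximal share (% of the reads of an entry, symlog axis) of the 87 members in each library, 1 point a member, with the median as a black bar and the 5% limit of the rule as a dashed line. The medians are 2.70% and 2.38% with cbc, 3.19% and 3.91% with PCF11, 2.95% and 2.76% with both, and 0.192% and 1.85% in the controls, which chose the members.

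A set chosen for low counts in some libraries can be expected to lie higher in others, so the same rule was applied to 1 control library alone (25 or more reads) and the other control library was kept as an independent comparison. Control library 1 alone chose 99 entries, of which 81 are members. Their median share was 3.40% and 2.79% with cbc, 3.92% and 5.04% with PCF11, 3.27% and 3.59% with both, 2.74% in control library 2 and 0% in control library 1, which chose them. All 6 overexpression medians lay above the unused control, cbc library 2 by little. At 5% or more were 33 and 35 entries with cbc, 40 and 51 with PCF11, 35 and 36 with both, and 30 (30.3%) in control library 2.

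Control library 2 alone chose 90 entries, of which 75 are members. Their median share was 2.66% and 2.22% with cbc, 2.40% and 4.11% with PCF11, 3.11% and 2.21% with both, and 0.911% in control library 1. At 5% or more were 24 and 24 entries with cbc, 30 and 41 with PCF11, 30 and 26 with both, and 18 (20%) in control library 1. The overexpression medians again lay above that of the unused control, and in both sets PCF11 library 2 was the highest. With 1 unused control library, these medians have no replicate check on the control side. The order was not particular to the chosen entries. Over all listed entries the median share was also highest in PCF11 library 2, at 22.2%. The other overexpression libraries had 18.41% to 20.9% there, and the controls 18.36% and 17.8%.

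**Figure D3:**
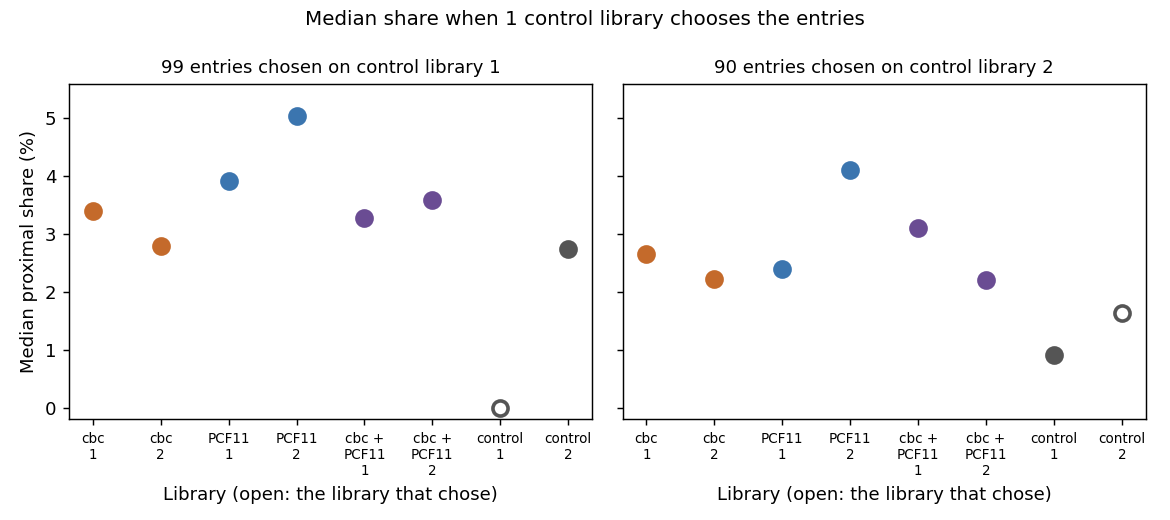
Median proximal share (%) by library of the 99 entries chosen on control library 1 (left) and the 90 chosen on control library 2 (right); the open circle is the library that chose the entries. The unused control lies at 2.74% on the left and 0.911% on the right, against 2.79% to 5.04% and 2.21% to 4.11% in the overexpression libraries.

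Usage was then tested entry by entry against the unused control, with edgeR's quasi-likelihood test and Benjamini-Hochberg adjustment over 516 entries, leaving out the library that had chosen. The control side is then 1 library with no replicate, which the fit takes to vary like the overexpression libraries; these alone supply the spread. Of the 99 entries chosen on control library 1, 95 passed the filter on reads. Against control library 2, proximal usage was higher in 3 of them with cbc, 5 with PCF11 and 6 with both (3.16%, 5.26% and 6.32% of those tested), and lower in 1 each. Over all 516 entries, 2.71%, 6.78% and 6.2% were higher and 2.13%, 0.969% and 2.33% lower. Of the 90 chosen on control library 2, 84 passed the filter. Against control library 1, 2, 4 and 4 were higher with cbc, PCF11 and both (2.38%, 4.76% and 4.76%), and 1 was lower each time, where 3.29%, 8.14% and 5.81% of all entries were higher and 1.55%, 1.36% and 1.36% lower. The shares called on the lists were thus close to, or below, those over all entries. Of the entries called higher, 4 of 7 against control library 2 and 4 of 6 against control library 1 had fewer than 5 proximal reads in the unused control, so they met the minimum of 5 only through the overexpression libraries where they were high. The calls depended on which libraries were in the fit. Without PCF11 library 1 or without PCF11 library 2, the calls for PCF11 ended in either set, and those for cbc and for both became fewer. Leaving out 1 of the other overexpression libraries gave more calls in some comparisons. The reason was not tested.

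In all, 3 genes were called in both sets: Rop and vih toward the proximal site and Usp7 toward the distal site. The 2 sets share the 6 overexpression libraries, and the 3 comparisons of a set share 1 control library, so these calls are not independent of each other. Of the 3 genes, Rop alone was under the minimum of 5 proximal reads in 1 of the unused controls. Rop is a Sec1/Munc18 protein, which acts with SNARE proteins in vesicle fusion. Its proximal window covers bases 4136866 to 4136896 of chromosome 3L (BDGP6, minus strand), in the 3' UTR, 155 bp past the stop codon, and the distal window ends 516 bp further. Rop had 145 of 422 and 142 of 368 reads at the proximal site with cbc (34.4% and 38.6%), 109 of 291 and 120 of 316 with PCF11 (37.5% and 37.97%), 70 of 364 and 162 of 404 with both (19.2% and 40.1%), and 4 of 290 and 9 of 357 in the controls (1.38% and 2.52%). All 6 overexpression libraries lay far above both controls, and library 1 of both was the lowest of the 6. Against the unused control library 2 the log2 odds ratio was 4.45 ± 0.78 (SE) with cbc (edgeR adjusted p = 0.0166), 4.53 ± 0.78 with PCF11 (adjusted p = 0.0184) and 3.95 ± 0.78 with both (adjusted p = 0.0339). Against control library 1 it was 5.32, 5.39 and 4.81. With 4 proximal reads there, Rop reached the minimum of 5 only through the overexpression libraries, so no p is printed for that set. Without PCF11 library 1 or PCF11 library 2 the calls for Rop ended. Without library 2 of both, the calls for both ended as well. Reads at the proximal site were 503 and 576 TMM-scaled CPM (reads scaled to a common library size) with cbc, 432 and 499.6 with PCF11, 236 and 569 with both, and 15.6 and 27.3 in the controls. Distal reads were 960 and 916 CPM with cbc, 722 and 816 with PCF11, 992 and 850.3 with both, and 1114 and 1056 in the controls. The summed reads of Rop did not pass the test in any comparison with the control (edgeR adjusted p = 0.137 with cbc, 0.600 with PCF11 and 0.325 with both).

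vih (vihar) is a ubiquitin-conjugating enzyme that works with the anaphase-promoting complex on mitotic cyclins. Its proximal window covers bases 12505495 to 12505525 of 3L (plus strand), 377 bp past the stop codon in the 3' UTR, and lies over CG10654 on the opposite strand. The proximal share of vih was 7.31% and 9.63% with cbc, 18.2% and 13.1% with PCF11, 18.8% and 12.04% with both, and 2.70% and 4.56% in the controls, on 710 to 1403 reads a library. All 6 overexpression libraries lay above both controls; those with cbc lay below those with PCF11 and with both, which overlapped each other. PCF11 and both passed against either unused control: the log2 odds ratio was 1.94 ± 0.45 and 1.91 ± 0.45 against control library 2 (edgeR adjusted p = 0.0485 and 0.0454), and 2.72 ± 0.49 and 2.69 ± 0.49 against control library 1 (edgeR adjusted p = 0.0189 and 0.0270). All these calls ended without either PCF11 library (edgeR adjusted p = 0.0534 to 0.167), and the one for both against control library 2 also without either library of both (0.0920 and 0.0597). Between the cbc and PCF11 libraries, the difference in log2 odds was -1.0 (95% interval -1.78 to -0.22, edgeR adjusted p = 0.582), so a difference between these genotypes did not pass.

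Usp7 is a deubiquitinating enzyme. Its proximal window, bases 12024019 to 12024049 of chromosome X (minus strand), lies 289 bp past the stop codon in the 3' UTR. The proximal share was 0.405% and 0.323% with cbc, 0.674% and 0.421% with PCF11, 0.302% and 0.483% with both, and 2.38% and 1.87% in the controls. Usp7 had the deepest coverage of the 3, with 9 to 20 proximal reads among 2786 to 3972 in each overexpression library, and 79 of 3326 and 72 of 3855 in the controls. All 6 overexpression libraries lay below both controls. The log2 odds ratio was -2.36 ± 0.37 with cbc, -1.79 ± 0.35 with PCF11 and -2.27 ± 0.35 with both against control library 2 (edgeR adjusted p = 0.0146, 0.0270 and 0.0176), and -2.71, -2.15 and -2.63 against control library 1 (edgeR adjusted p = 0.0128, 0.0160 and 0.00950). The calls with cbc and with both held without each of the 6 overexpression libraries, and those with PCF11 ended without either PCF11 library (edgeR adjusted p = 0.0587 to 0.125). Summed reads of Usp7 were 11970 and 11300 CPM with cbc, 11770 and 12850 with PCF11, 13400 and 13090 with both, and 12950 and 11700 in the controls, and passed in none of the 3 comparisons (edgeR adjusted p = 0.601, 0.993 and 0.485).

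**Figure D4:**
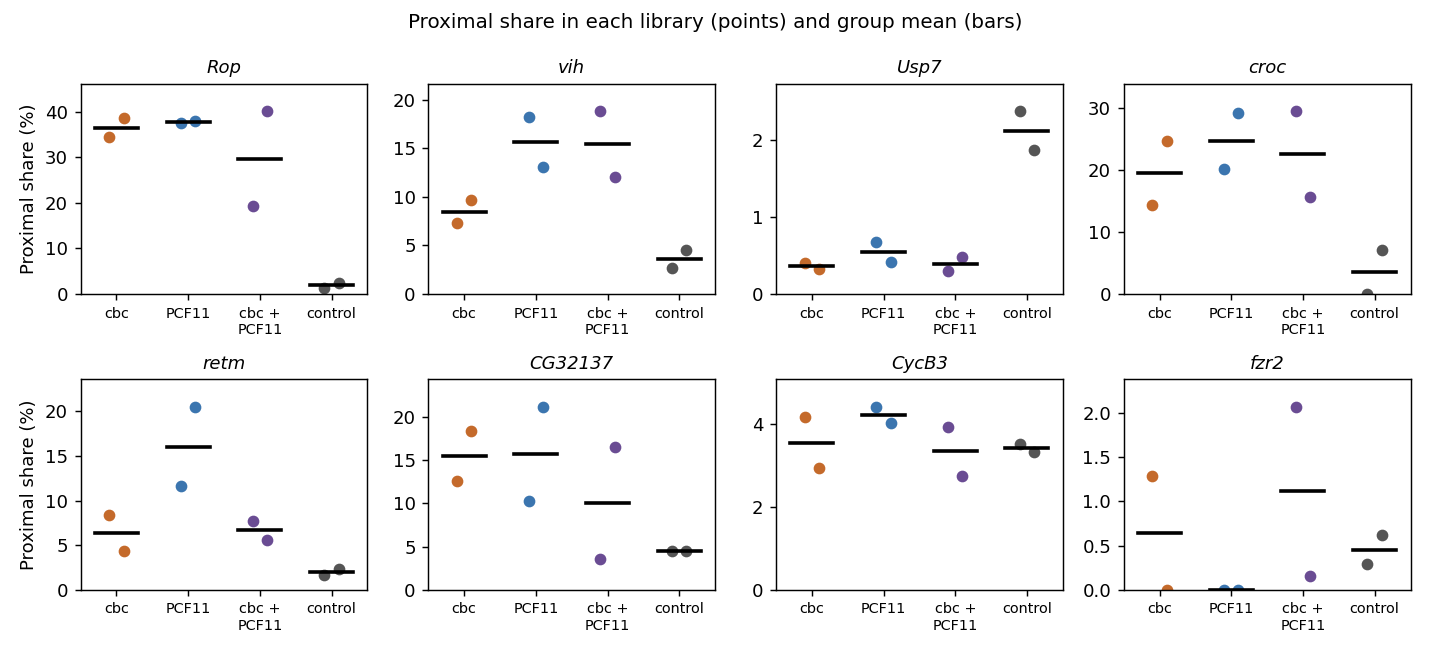
Proximal share (% of reads of the entry, linear axes from 0 that differ between panels) of 8 members in each library (points), with the group mean (bars). In Rop, vih and croc the overexpression libraries lie above both controls, in Usp7 below, and CycB3 has 2.93% to 4.41% with overexpression and 3.51% and 3.32% in the controls.

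The remaining genes called in 1 of the 2 sets alone had at most 9 proximal reads in the unused control apart from CG4686, and they were named after their values were seen. For those with fewer than 5, which are E(bx)-PA, sno, kel, Scm, dgrn, CG43675 and 1 gene of chromosome 3R named for its lethal mutation, the shares are given as a description and no p is printed. E(bx)-PA encodes NURF301, the large subunit of the NURF chromatin remodeller. It had shares of 7.05% and 8.96% with cbc, 6.09% and 10.2% with PCF11, 6.53% and 16.1% with both, and 0.807% and 0.251% in the controls, that is 2 of 248 and 1 of 398 reads. The second E(bx) entry, E(bx)-PC, had 0.746% and 1.47% with cbc, 5.10% and 2.29% with PCF11, 2.49% and 0.270% with both, and 3.35% and 4.25% in the controls. Of its 6 overexpression libraries, 5 lay below both controls and 1 above. The chromatin gene sno had 3.49% and 2.38% with cbc, 1.99% and 0.676% with PCF11, 2.27% and 3.11% with both, and 0.279% and 0.128% in the controls, where 1 proximal read was found in each.

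kel, the founding member of the Kelch protein family and a component of ovarian ring canals, had 4.78% and 6.98% with cbc, 4.88% and 8.73% with PCF11, 3.27% and 4.59% with both, and 2.78% and 0% in the controls. Scm, a Polycomb group protein, had 5.59% and 5.66% with cbc, 1.22% and 1.33% with PCF11, 2.21% and 4.49% with both, and 0% and 3.06% in the controls. dgrn, a SUMO-targeted ubiquitin ligase, had 2.79% and 6.32% with cbc, 9.54% and 11.5% with PCF11, 13.8% and 9.18% with both, and 0% and 2.88% in the controls. CG43675 had 0.734% to 4.13% with overexpression and 1.54% and 0% in the controls. The gene of chromosome 3R had 13.4% and 8.51% in the PCF11 libraries and 1.02% and 1.87% in the controls. Ccdc85 passed with both, at 11.6% and 13.2% in the libraries with both and 2.35% and 4.04% in the controls (edgeR adjusted p = 0.0467 against control library 1). CG4686 passed with PCF11 against control library 2, at 8.63% and 7.70% with PCF11 and 4.02% and 3.70% in the controls (edgeR adjusted p = 0.0485), on 2856 to 3357 reads a library.

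Among the 6 members with the highest mean share in each genotype, Rop and croc stood in all 3 genotypes and others in 1 or 2. CG33293 had 28 of 33 and 0 of 9 proximal reads with cbc, 0 of 13 and 8 of 33 with PCF11, 74 of 96 and 0 of 6 with both, and 0 of 40 and 0 of 60 in the controls. Its 2 libraries of 1 genotype thus differed by up to 84.8 percentage points, on few reads, and both of its windows lie over CtsF on the same strand. CG33136 had 0 of 9 and 0 of 10 with cbc, 19 of 30 and 4 of 21 with PCF11, 14 of 38 and 0 of 10 with both, and 0 of 20 and 0 of 37 in the controls. No other member had over 50% of its reads at the proximal site in an overexpression library. croc, a forkhead transcription factor, had 14.4% and 24.6% with cbc, 20.2% and 29.3% with PCF11, 29.5% and 15.6% with both, and 0% and 7.14% in the controls, with 55 to 179 reads a library. All 6 overexpression libraries lay above both controls, while the overexpression groups overlapped one another. croc was chosen by control library 1 alone and did not pass against control library 2 (edgeR adjusted p = 0.419 with cbc, 0.297 with PCF11 and 0.324 with both).

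retm (real-time), a Sec14-like protein, had 8.37% and 4.35% with cbc, 11.6% and 20.5% with PCF11, 7.75% and 5.56% with both, and 1.67% and 2.29% in the controls. CG32137 had 12.6% and 18.4% with cbc, 10.3% and 21.2% with PCF11, 3.59% and 16.5% with both, and 4.50% and 4.46% in the controls, so that library 1 with both lay below both controls. Klp98A, a kinesin of the kinesin-3 family, had 16.5% and 8.76% with cbc, 9.78% and 0% with PCF11, 6.25% and 5.33% with both, and 2.76% and 5.73% in the controls. The deubiquitinating enzyme Usp8 had 9.18% and 11.8% with cbc, 6.57% and 2.56% with PCF11, 2.75% and 14.3% with both, and 0% and 6.22% in the controls. In CG32137, Klp98A and Usp8, at least 1 overexpression genotype had its libraries on both sides of a control value.

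At the other end stood members with deep coverage and a proximal site that stayed low. fzr2, a paralogue of the anaphase-promoting complex activator fizzy-related, had 1.28% and 0% with cbc, 0% and 0% with PCF11, 2.07% and 0.157% with both, and 0.291% and 0.620% in the controls, on 1017 to 1935 reads. pho, a DNA-binding Polycomb group protein, stayed between 0.508% and 3.72% in the overexpression libraries, against 1.13% and 0.891% in the controls. CG5098 and ebo reached at most 4.63% and 3.44%, against 4.67% and 0% as the highest control values.

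Of all 529 entries, 87 are members. Among the lists by function, 5 members are cell cycle and cytoskeleton genes of 11 such entries. With so few entries a list, the counts of members are descriptions. CycB3 (cyclin B3) had 4.15% and 2.93% with cbc, 4.41% and 4.01% with PCF11, 3.92% and 2.75% with both, and 3.51% and 3.32% in the controls, on 921 to 1655 reads, so its groups overlapped. Cks30A, a small partner of cyclin-dependent kinases, had at most 1.56% in any library. cnn (centrosomin), a centrosome protein, had 5 of 22 proximal reads in 1 library with both and none in the other 7. Of 7 RNA-binding entries, 2 are members, although retm is not known as an RNA-binding protein. The other is Rbp9, of the ELAV family, with 6.83% and 11.6% with cbc, 10.7% and 5.04% with PCF11, 5.35% and 9.97% with both, and 3.36% and 5.35% in the controls. Of the 10 kinase and signalling entries 1, Src42A, a Src-family tyrosine kinase, is a member. It had 8.57% and 10.3% with cbc, 7.56% and 10% with PCF11, 0.962% and 9.04% with both, and 4.50% and 0.407% in the controls. Of the 17 chromatin and transcription entries 4 are members, and the fourth beside E(bx) and sno is the BTB transcription factor lola. Of 6 mitochondrial and metabolic entries, the sphingolipid synthase gene SMSr is a member, with 2.08% and 0.444% with cbc, 3.61% and 5.998% with PCF11, 3.24% and 3.75% with both, and 2.85% and 1.61% in the controls.

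The overexpression genotypes did not choose the members, so they could be compared with each other. Of 83 tested members, 0 passed between cbc and PCF11, between both and cbc, or between both and PCF11, as did 0% of all 516 entries (edgeR's quasi-likelihood test). At an unadjusted p under 0.05 there were 6, 8 and 6 (7.23%, 9.64% and 7.23%), against 8.53%, 6.2% and 3.49% of all entries. These counts are descriptions, since 27 of the 83 reach the minimum of 5 proximal reads only with overexpression reads. GlcAT-S is an example, with 20 proximal reads where both were overexpressed, 3 with cbc, and 0 with PCF11 and in the controls. DESeq2 called 1, 1 and 0 members, and its share over all entries was not worked out. The tests do not show that the genotypes act alike. For Rop the difference in log2 odds was -0.08 between cbc and PCF11 (95% interval -1.16 to 1.01), -0.51 between both and cbc (-1.60 to 0.59) and -0.58 between both and PCF11 (-1.69 to 0.52). The lowest adjusted p belonged to CG4686, which had 2.62% and 3.61% with cbc against 8.63% and 7.70% with PCF11 (log2 odds -1.48, 95% interval -1.97 to -0.996, edgeR adjusted p = 0.0934). Its windows lie over Mrp5 on the opposite strand.

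Summed reads of an entry, which stand for its RNA level relative to the listed genes, entered the rule only through the minimum of 50 control reads. With cbc, 7 of 87 members rose and 7 fell, where 12.6% of all 523 entries rose and 10.5% fell (edgeR's quasi-likelihood test). With PCF11, 9 rose and 9 fell, against 11.5% and 9.94% of all entries. With both, 13 rose and 18 fell, against 18% and 14.9%. The median change of the members on the log2 scale was -0.09, -0.14 and -0.05, and that of all entries -0.03, 0.00 and 0.02. Changes in 11 members passed in all 3 comparisons, 6 of them up (TM9SF2, Trc8, chb, dgrn, fray and siz) and 5 down (CG17230, CG31697, CG32161, CG43675 and fzr2). These are 6.9% and 5.75% of the members, against 8.99% and 6.12% of all 523 entries. The 3 comparisons share the control libraries.

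chb encodes CLASP, which binds growing microtubule ends. Its summed reads were 1483 and 1553 CPM with cbc, 1246 and 1520.0 with PCF11, 685 and 1912 with both, and 222 and 285 in the controls. All 6 overexpression libraries lay above both controls. The log2 change was 2.57 ± 0.36 with cbc, 2.44 ± 0.36 with PCF11 and 2.35 ± 0.36 with both (edgeR adjusted p = 7.93e-05, 0.000206 and 0.000164). The proximal share of chb stayed low, at 0% to 3.94% with overexpression and 0% and 2.13% in the controls. The reads that rose were thus at the distal site.

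dgrn had 1244 and 1026 CPM with cbc, 1039 and 1053 with PCF11, 735.5 and 1072 with both, and 424.5 and 316 in the controls, with log2 changes of 1.62, 1.504 and 1.29 (edgeR adjusted p = 0.000315, 0.000593 and 0.00168). siz, an Arf exchange factor, had 1237 and 1099 CPM with cbc, 885 and 841 with PCF11, 1002 and 1571 with both, and 354 and 534 in the controls (log2 changes 1.39, 0.95 and 1.53). Trc8, a ubiquitin ligase of the endoplasmic reticulum, had 2294 and 2303 CPM with cbc, 2634 and 2523 with PCF11, 2500.0 and 2537 with both, and 857 and 1260.0 in the controls (log2 changes 1.11, 1.28 and 1.25). None of the overexpression values of these genes overlapped the controls. The kinase gene fray also rose in all 3 (log2 changes 1.34, 1.22 and 1.40), CG8195 with PCF11 and with both (1.47 and 1.73), and Vrp1, which encodes verprolin, an actin regulator, with both (1.47). CG8195 was lost with PCF11 without PCF11 library 1, control library 1 or 3 other libraries in turn, at an edgeR adjusted p of up to 0.350, and with both without library 2 of both (0.0596).

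CG31697 fell to 128 and 68.9 CPM with cbc, 171 and 137 with PCF11 and, where both were overexpressed, 186 and 87.9, against 397 and 479.5 in the controls. Its log2 change was -2.14 ± 0.52, -1.51 ± 0.50 and -1.68 ± 0.50 (edgeR adjusted p = 0.00632, 0.0410 and 0.0188). The calls ended without cbc library 2, without either PCF11 library, without library 2 of both or without control library 2 in 1 or more of the comparisons (edgeR adjusted p up to 0.210). CG17230 had 804 and 446 CPM with cbc, 539.5 and 608 with PCF11, 516 and 478 with both, and 1414 and 1269 in the controls (log2 changes -1.10, -1.22 and -1.43); the cbc call ended without cbc library 2 (edgeR adjusted p = 0.129) and the PCF11 call without PCF11 library 1 (edgeR adjusted p = 0.0860). CG43675 had log2 changes of -1.16, -1.20 and -1.01 and CG32161 of -0.99, -1.14 and -1.31. CG3982 fell with cbc (-1.19) and CG1024 with both (-1.18). The call for CG3982 with cbc ended without cbc library 2 (edgeR adjusted p = 0.104).

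In 25 members a window lies over a second gene, which is antisense in 17 and runs on the same strand in 8; reads of these genes cannot be told apart. On the same strand these are CG31697, CG32161, CG33293, CG3982, CG43675, fray, fzr2 and ssp2. Among the 20 members whose summed reads fell in at least 1 comparison, 6 (30%) have such a same-strand overlap, against 9.2% of all members, and among the 16 that rose in at least 1 it was 1 (6.25%). These shares were worked out for the members alone, not for all entries that fell or rose. They rest on few entries, and whether the overlap bears on the falls was not tested. Of the 5 that fell in all 3 comparisons, CG17230 alone has none.

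nrv2, which encodes a beta subunit of the sodium pump, was the 1 member to pass between overexpression genotypes, and was named after its values were seen. It had 5371 and 4635 CPM with both, 2423 and 2335 in the cbc libraries, 2900.0 and 2686 in the PCF11 libraries, and 2625 and 2061 in the controls. The libraries with both were the highest. The log2 change was 1.07 ± 0.16 between both and cbc (edgeR adjusted p = 0.00337; 0.382% of entries were called) and 0.84 ± 0.16 between both and PCF11 (edgeR adjusted p = 0.0488; 0.191% of entries). The first call ended without cbc library 1, cbc library 2 or library 1 of both (edgeR adjusted p up to 0.104), and the second without each of the 6 overexpression libraries (up to 0.827). Between cbc and PCF11, 0 members passed by edgeR, as did 0% of all entries.

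**Figure D5:**
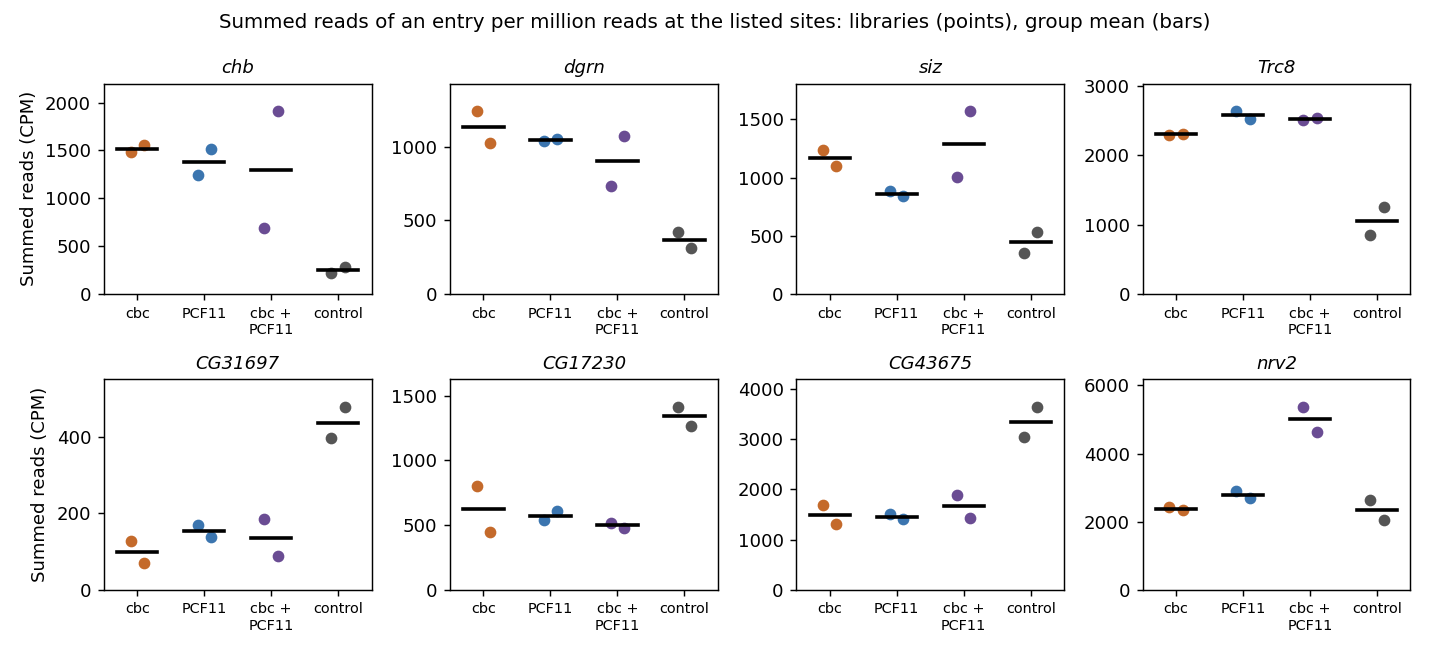
Summed reads of 8 members in each library (points; TMM-scaled CPM over the listed sites, linear axes from 0 that differ between panels) with the group mean (bars). In chb, dgrn, siz and Trc8 the overexpression libraries lie above both controls, in CG31697, CG17230 and CG43675 below, and in nrv2 the 2 libraries with both lie above all others.

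By the functional lists, the ubiquitin genes had 1 of 3 members higher with cbc (Trc8), 2 with PCF11 (Trc8 and Usp8) and 1 with both (Trc8), and none lower. The cell cycle and cytoskeleton genes had 1 of 5 higher (chb) and 1 lower (fzr2) in each comparison. The chromatin genes had 0 of 4 called with cbc and with PCF11, and 3 of 4 lower with both (E(bx)-PC, lola and sno). Of all entries, 10.5% were lower with cbc, 9.94% with PCF11 and 14.9% with both, and 12.6%, 11.5% and 18% were higher; with 1 to 5 members a list, these counts are descriptions. The log2 changes with both were -0.69 for E(bx)-PC, -0.92 for lola and -0.71 for sno. Src42A was lower with both (-0.83), SMSr higher with both (0.60), and Rbp9 and retm passed in none of the 3 comparisons.

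In the authors' deposited table of usage results, 26 of the 87 members are listed for cbc (29.9%), 31 for PCF11 (35.6%) and 28 for both (32.2%), against 89.4%, 89.6% and 89.6% of the 442 other entries. Rop, vih and croc are in all 3 of the authors' deposited tables, and Usp7 is in none. Of the members listed in the authors' deposited tables, 20 of 26, 26 of 31 and 22 of 28 had a mean share of 5% or more in the overexpression genotype, against 2 of 61, 6 of 56 and 7 of 59 of the members left out. The setting of 0.05 for the smallest share of a site stands in the log of that run. Those tables hold few of the members whose mean share stayed below 5%. The reason was not tested, and a member left out for cbc had a mean share of 42.4% there. For members with 3 sites, the authors' fraction need not be that of the first site. For Art4 it was 0.612 in the control, against a pooled control share of 1.84% at the first site.

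The limit of 5% cuts through a continuum. The members just inside were HIPP1 at 4.61%, CG4239 at 4.84% and oxt at 4.95% of pooled control reads, and the entries just outside were CG2129 at 5.08%, CG6700 at 5.11% and Ranbp21 at 5.15%. oxt itself had 0% and 7.08% in the 2 controls.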

How the data were processed

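Poly(A) site use was measured in 8 libraries. The deposited tables hold raw counts of reads per window, which the authors generated by PolyA-miner, per the file headers and its run log: 30 bp windows ending at listed positions (1098), strand setting 0, no molecular identifiers, minimum site share 0.05. Bowtie, SAMtools and the builds dm6 and BDGP6 are named in the submitters' processing notes, with no versions. The authors' deposited result tables also give fractions of reads at the proximal site and p-values, per the file headers. These were used only to count and list entries and to give the control fraction of Art4. On read trimming, the settings are not stated in the labels or headers.

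The 3 tables share control columns and gave 1082 windows in 529 entries. Coordinates follow the deposited tables; 16955 of 17017 matched genes (99.6%) had the same ends in the Ensembl 115 annotation of BDGP6.54, which placed the windows. For usage, edgeR 4.0.16 under R 4.3.3 was run (quasi-likelihood; proximal against summed distal counts; library, site and site-by-genotype terms; all 8 libraries, or without the control library that chose the list), for entries with a mean of 10 or more reads a library and 5 or more reads on each side. These were 516 of 529, and 83 of the 87 members; 27 of the 83 reach the minimum only through overexpression reads, and CG12991, CG46457, bbg and ear were left out. Standard errors of log2 odds ratios are approximate (coefficient over the root of F), as are intervals built on them. The intervals are shorter than the test implies. For Scm between cbc and PCF11, the interval of 0.21 to 4.14 left out 0 at an unadjusted p of 0.0590 (edgeR's quasi-likelihood test). Summed reads used TMM factors over 523 entries, so changes are relative to the listed genes. Benjamini-Hochberg adjustment had a threshold of 0.05. Tests were run on simulated counts with known shifts and a fixed spread, which need not match the spread of these libraries. Figures were drawn with matplotlib 3.10.9. Libraries of 1 genotype differed beyond sampling noise in all 4 groups.

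Members, function lists and tests were chosen with earlier results of these data known. Named entries were the 6 highest mean shares per genotype, the 5 with most reads among those with the lowest overexpression shares, the largest changes in summed reads, and members of 12 function lists. Alternatives were DESeq2 1.42.0, replicate blocks, other filters, other scaling, other share limits and each library left out. Library totals beyond the listed sites were not used here.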

Additional observations from a re-analysis of the deposited data

How the results depend on the processing

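With 2 libraries a group and few proximal reads, counts of calls moved with the tool more than with the filter. Under the alternatives, calls were counted on the chosen entries or the members alone, with no share over all entries beside them. A larger count thus cannot be told apart from a tool or setting that calls more throughout. For usage against the held-out controls, edgeR called 4, 6 and 7 entries (cbc, PCF11, both) against control library 2 and 3, 5 and 5 against control library 1; DESeq2 called 12, 12 and 14, and 9, 14 and 13. Against control library 2, cbc gave 2 with only the libraries compared and 2 with the most distal site set against all others; against control library 1, both gave 3 without entries over another gene, an alternative chosen after seeing the data. Leaving out 1 library gave 1 to 8, 0 to 8 and 1 to 6 calls against control library 2, and 1 to 3, 0 to 10 and 1 to 8 against control library 1. The lowest values came without either PCF11 library. Between overexpression genotypes, leaving out 1 library gave 0 usage calls throughout; DESeq2 called 1 for cbc against PCF11 and 1 for both against cbc. The causes were not tested.

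Libraries with the same replicate number showed little shared deviation: the correlations were -0.05 to 0.07 for usage and -0.11 to 0.13 for summed reads. With 2 libraries a group and few reads at many sites, these values cannot exclude a pairing. With a replicate block, cbc had 11 usage calls against control library 2, and PCF11 10 and both 8 against control library 1, while both against PCF11 had 0 in summed reads. With the PCF11 numbers crossed, chosen after seeing the data, both against cbc had 3 in summed reads.

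Summed reads against the control changed in 14, 18 and 31 members (cbc, PCF11, both), and in 6, 10 and 19 without entries over another gene, where fewer members are tested. Leaving out 1 library gave 10 to 20, 6 to 21 and 17 to 31; PCF11 had 6 without PCF11 library 1 and 11 without PCF11 library 2, and both had 17 without library 2 of both. Between genotypes, leaving out 1 library gave 0 for cbc against PCF11, 0 to 2 for both against cbc and 0 to 1 for both against PCF11. With only the libraries compared, cbc against PCF11 had 4 and both against cbc 2; DESeq2 called 2 for both against cbc; both against PCF11 had 0 at a mean of 50 or more reads and 0 with upper-quartile scaling.

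A limit of 2% left 50 members, with median shares of 1.63% for cbc, 1.91% for PCF11 and 2.09% for both. A limit of 10% gave 132, with 3.603%, 4.83% and 4.20%, against 3.27% in the control. With 1 library left out, medians were 2.38% to 2.70% for cbc, 3.19% to 3.91% for PCF11, 2.76% to 2.95% for both and 0.192% to 1.85% for the control. Of the values of single entries under alternatives, 578 kept their side of the threshold, 58 fell short of it and 0 reversed.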
